A study of Mus musculus with 52 samples.

Results

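The T cell receptor recognises peptide on MHC molecules but has no signaling tail of its own. It reaches the cell surface together with the CD3 γ, δ and ε chains and the ζ chain, whose cytoplasmic tails are phosphorylated by the kinase Lck and then bound by the kinase ZAP-70. The coreceptors CD4 and CD8 bind MHC class II and class I and bring Lck to the receptor. CD2 is an adhesion and costimulatory receptor of lymphocytes, among them T cells and natural killer (NK) cells, and is not particular to these. The 10 genes described here encode these proteins: Cd3d, Cd3e and Cd3g (CD3 δ, ε and γ), Cd247 (ζ), Cd4, Cd8a and Cd8b1 (the CD8 α and β chains), Cd2, Lck and Zap70. They were chosen by name from 27525 genes, and all 10 passed the filter on low values in every comparison.

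Tumors were grown under the skin of male C57BL/6NHsd mice, aged 8 to 10 weeks, from KPC cells, a pancreatic adenocarcinoma line derived from a genetically engineered mouse with Pdx1-Cre. All 4 groups of 8 tumors carried the same cells and differed only in treatment. Untreated tumors received neither agent, and the second group received 2 µg of ADU-S100, a cGAMP analog that activates STING, by injection into the tumor. The third group received 4 intraperitoneal doses of 100 µg of an agonistic antibody to the lymphotoxin β receptor (anti-LTβR, clone 4H8), and the fourth received both agents (combination). Each tumor was collected on day 14 and sequenced without pooling, and whether some tumors shared a mouse was not stated. Each library was made from bulk poly(A) RNA. In such samples a change in the number of T cells and a change in RNA per T cell cannot be told apart.

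Values are normalized counts, reads per gene divided by a size factor for each library. Reads recovered per tumor ran from 12762453 to 15591986 (median 14932388), and 7 tumors lay below 14000000, of which 1 was untreated and 2 belonged to each other group. The 10 genes were measured with 43 recovered reads (Cd3d in the lowest tumor) to 952 (Cd8a in the highest). The tissue label was checked on keratins of the tumor epithelium: Krt8 averaged 9520 ± 2014 normalized counts (SD, n = 8) in untreated tumors and 5024 ± 1021 with the combination. The sum of the 10 members lay between 907 and 3232 normalized counts per tumor. The labels place all 32 tumors in the same experiment and give no sequencing batch, so no batch term could be fitted. The paper's figure legend names a single experiment for some of its bulk RNA panels and combined, independent experiments for others. Which of these holds for the 32 tumors could not be settled. Fold changes below are log2 differences of normalized counts + 1, tested with limma over all genes and adjusted by the Benjamini-Hochberg method, and a gene was called at an adjusted p below 0.05.

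Cd3g, Cd3d and Cd3e lie side by side on mouse chromosome 9 (build GRCm38). Cd3g (ENSMUSG00000002033) spans chr9:44969572-44980431 on the minus strand and Cd3d (ENSMUSG00000032094) chr9:44981786-44987339 on the plus strand, with 1354 bases between them. Cd3e (ENSMUSG00000032093) follows at chr9:44998740-45009627 on the minus strand, 11400 bases beyond Cd3d. Cd247 (ENSMUSG00000005763) is on chr1:165788681-165877277, plus strand. It shares 2918 exon bases with Pou2f1, a transcription factor gene on the other strand, and 206 with the transcript Gm16565 on its own strand. Cd3e shares 135 exon bases with the antisense gene Gm48719, and whether reads were counted by strand was not stated. Cd8a (ENSMUSG00000053977, chr6:71373427-71379173) and Cd8b1 (ENSMUSG00000053044, chr6:71322788-71337494) are neighbours on the plus strand, 35932 bases apart. Cd4 (ENSMUSG00000023274) lies far from them on the same chromosome at chr6:124864692-124888221, minus strand. The others are Cd2 (ENSMUSG00000027863, chr3:101275899-101287939, minus strand), Lck (ENSMUSG00000000409, chr4:129548344-129573641, minus strand) and Zap70 (ENSMUSG00000026117, chr1:36761798-36782818, plus strand).

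The promoters of the 4 signaling chains are shown because these genes are needed together for surface expression of the receptor and rose together with the combination. Each sequence is the RefSeq window from 250 bases before to 50 after the start of transcription (GRCm38.p6), read 5′ to 3′ on the strand of the gene. Capitals mark GGAAG or its complement CTTCC, the core of sites for ETS factors, and CACCTG or its complement CAGGTG, a form of the E-box. Cd3g is at chr9:44980382-44980681, Cd3d at chr9:44981536-44981835, Cd3e at chr9:45009562-45009861 and Cd247 at chr1:165788431-165788730.
Cd3g: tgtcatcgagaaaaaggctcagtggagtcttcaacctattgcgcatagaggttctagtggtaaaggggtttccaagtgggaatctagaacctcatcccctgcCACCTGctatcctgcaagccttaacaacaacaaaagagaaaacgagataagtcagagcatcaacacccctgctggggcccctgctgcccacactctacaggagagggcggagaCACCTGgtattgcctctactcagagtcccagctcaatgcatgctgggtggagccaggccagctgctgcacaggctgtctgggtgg
Cd3d: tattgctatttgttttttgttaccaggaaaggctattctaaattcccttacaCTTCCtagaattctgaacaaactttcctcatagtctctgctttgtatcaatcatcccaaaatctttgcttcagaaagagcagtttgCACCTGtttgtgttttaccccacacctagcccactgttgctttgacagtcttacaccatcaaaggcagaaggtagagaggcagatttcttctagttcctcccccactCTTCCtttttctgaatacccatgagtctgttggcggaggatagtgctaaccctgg
Cd3e: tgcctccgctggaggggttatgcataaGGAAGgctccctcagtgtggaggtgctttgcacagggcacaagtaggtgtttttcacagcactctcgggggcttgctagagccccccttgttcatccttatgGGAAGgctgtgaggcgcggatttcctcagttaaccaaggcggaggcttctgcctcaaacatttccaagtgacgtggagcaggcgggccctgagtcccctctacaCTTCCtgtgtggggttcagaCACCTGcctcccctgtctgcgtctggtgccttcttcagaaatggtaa
Cd247: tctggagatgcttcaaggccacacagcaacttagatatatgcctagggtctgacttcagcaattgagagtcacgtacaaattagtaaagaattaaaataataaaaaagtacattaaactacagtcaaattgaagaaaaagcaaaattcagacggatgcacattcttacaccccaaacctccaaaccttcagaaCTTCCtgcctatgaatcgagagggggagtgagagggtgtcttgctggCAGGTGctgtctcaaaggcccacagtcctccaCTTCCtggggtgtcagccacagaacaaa

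The E-box CACCTG was found in all 4 of these windows, with 2 copies in Cd3g and 1 in each of the others. On both strands it is present in 20.2% of the 32851 RefSeq windows of the same length. GGAAG was found 3 times in Cd3e, 2 times in Cd3d and in Cd247 and 0 times in Cd3g, against 71.4% of all windows with at least 1 copy. The window of Cd8a, at chr6:71373177-71373476 on the plus strand, holds CTTCC 2 times and the E-box 0 times:
Cd8a: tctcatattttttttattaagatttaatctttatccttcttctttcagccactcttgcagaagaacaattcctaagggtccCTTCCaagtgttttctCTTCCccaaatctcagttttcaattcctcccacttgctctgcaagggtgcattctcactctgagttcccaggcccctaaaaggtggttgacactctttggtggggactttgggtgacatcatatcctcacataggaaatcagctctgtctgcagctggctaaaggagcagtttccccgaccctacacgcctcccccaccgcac
RefSeq windows were matched for 7 of the 10 members, 10 windows in all since Lck has 2 and Zap70 3 starts. Of these 10 windows, 8 hold the E-box and 8 hold GGAAG. The RUNX-type motif TGTGGT is in 2 of them, against 16.8% of all windows. A GATA-type motif, AGATAA, is in 1 of them and in 11.2% of all windows. The TATA box, searched as TATAAA, is in 0 of them and in 13.6% of all windows. No match overlaps another in these windows. A match describes letters only, not a bound site.

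Transcripts of all 10 genes rose with the combination of agents over untreated tumors, by 1.51-fold for Cd3g to 2.24-fold for Cd4. Of 16909 genes tested in this comparison, 43.2% were called, 19.6% as higher and 23.6% as lower. The median log2 fold change of the members was 0.84, against -0.02 for all genes. At the stricter rule of a change of at least 2-fold, Cd3e and Cd4 passed, where 5.16% of all genes did so in the upward direction. The plot of normalized counts by tumor shows each of these values.

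**Figure D1:**
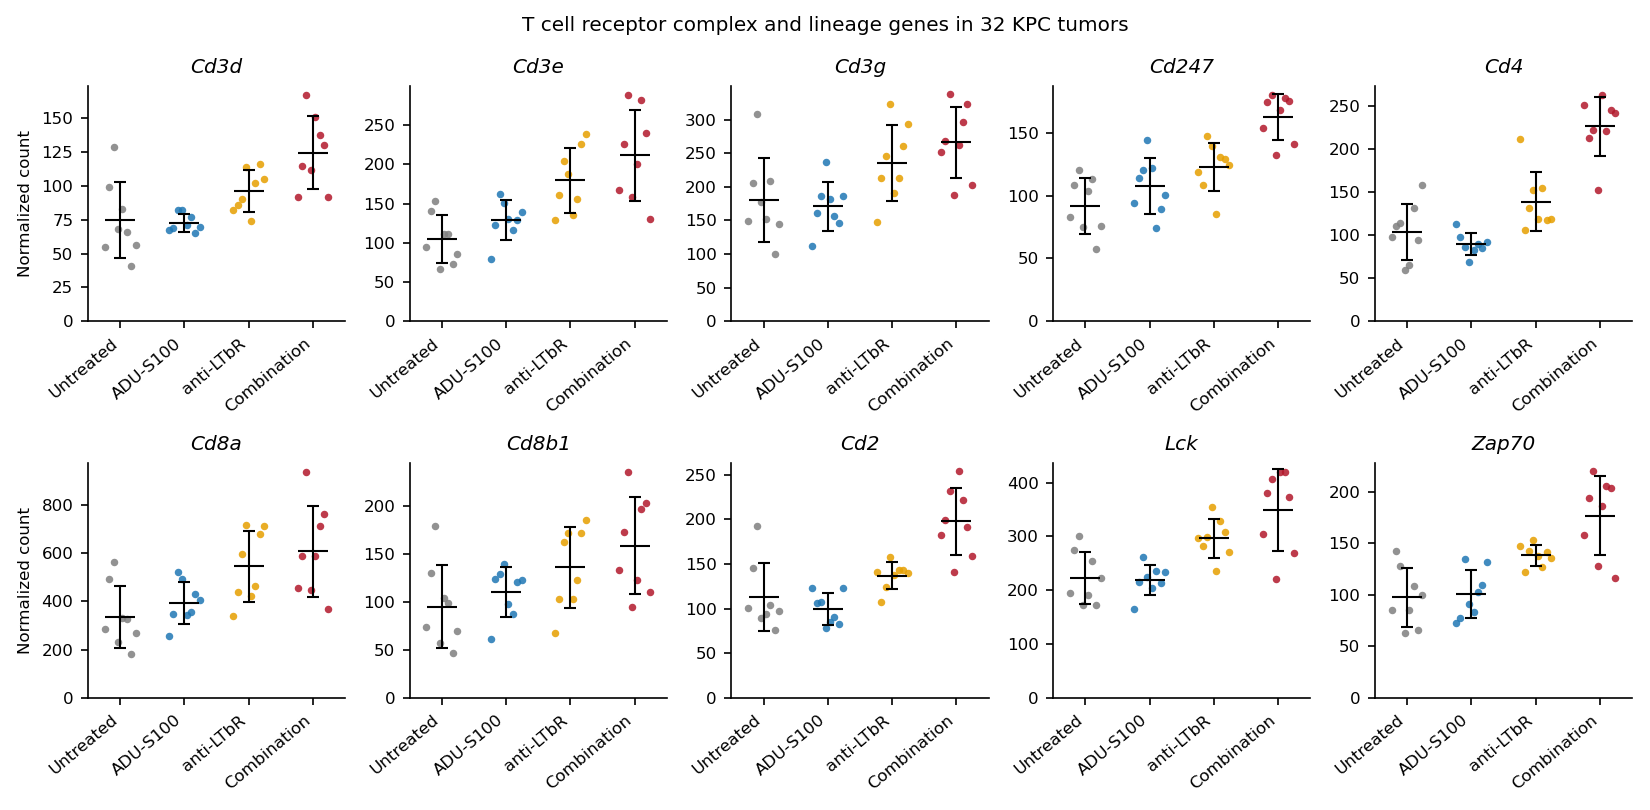
Normalized counts (vertical axis, linear from 0) of the 10 genes in 4 groups of 8 tumors, a point per tumor, with black bars for the mean ± SD. Combination tumors of Cd247 lie at 132 to 180.3, all above the untreated range of 57.8 to 120.1, while combination and untreated tumors overlap for the other members.

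Cd3e encodes the ε chain, which pairs with δ or γ in each CD3 dimer. Untreated tumors held 67.3 to 153 normalized counts of it (median 103), and ADU-S100 tumors 79.4 to 163 (median 130.1). With anti-LTβR they ran from 129 to 238 (median 174), and with the combination from 129.8 to 289 (median 214). All but 1 combination tumor lay above every untreated tumor, with means of 212 ± 57.9 and 105 ± 30.8 (SD, n = 8 each). On the log2 scale Cd3e rose by 1.01 (SE 0.195, limma adjusted p = 0.000650).

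Cd3d, the δ chain, had the lowest mean count of the 10 in every group, and its untreated and combination tumors overlapped. Untreated tumors held 41.2 to 129 (median 66.9) and combination tumors 91.6 to 167 (median 122), so 4 of 8 combination tumors exceeded all untreated ones. ADU-S100 tumors were tightly grouped at 65.3 to 82.5 (median 70.2, coefficient of variation 9.10%), within the untreated range, where the coefficient was 37.8%. Anti-LTβR tumors lay at 74.0 to 116 (median 96.3). Over untreated tumors, the combination raised Cd3d by 0.78 on the log2 scale (SE 0.202, limma adjusted p = 0.00536).

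Cd3g, the γ chain, had the smallest change of the 10. Its counts were 99.6 to 308 (median 164) in untreated tumors, 111 to 237 (median 172) with ADU-S100, 148 to 323 (median 229.8) with anti-LTβR and 188 to 338 (median 265) with the combination. Only 2 combination tumors were above the highest untreated tumor, tumor 3, which also held the highest value of the group for 8 of the 10 genes. The log2 fold change was 0.60 (SE 0.186, limma adjusted p = 0.0158).

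Cd247 encodes ζ, which carries most of the phosphorylation motifs of the complex. It was the only member whose combination tumors (132 to 180.3, median 171) all lay above all untreated tumors (57.8 to 120.1, median 93.2), an order that 4.64% of all tested genes had. Values with ADU-S100 were 74.3 to 144 (median 107) and with anti-LTβR 85.7 to 147 (median 127). The combination mean was 163 ± 18.2 against 92.1 ± 22.2 (SD, n = 8 each). Cd247 thus rose by 0.85 on the log2 scale (SE 0.139, limma adjusted p = 0.000191). The overlapping gene Pou2f1 was not called: its means were 496 ± 82.1 in untreated and 453 ± 65.9 in combination tumors, with a log2 difference of -0.13 (SE 0.111, limma adjusted p = 0.369). Per kilobase of exon, mean levels in untreated tumors were 177 for Cd3g, 71.6 for Cd3e, 46.2 for Cd3d and 20.2 for Cd247, and the same order held in each treated group.

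Cd4, the coreceptor of helper and regulatory T cells that is also present on some mouse dendritic cells, changed most among the members. Counts in untreated tumors were 60.2 to 159 (median 104), and in ADU-S100 tumors they were 68.7 to 114 (median 88.4). Anti-LTβR tumors had 106 to 212 (median 126) and combination tumors 153 to 263 (median 233). All combination tumors but tumor 4 were higher than every untreated tumor, and all 8 were higher than every ADU-S100 tumor. Means were 227 ± 34.4 with the combination against 104 ± 32.8 without treatment (SD, n = 8 each). Cd4 rose by 1.16 on the log2 scale (SE 0.178, limma adjusted p = 0.000113).

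Cd8a, the α chain of the coreceptor of cytotoxic T cells, had the highest counts of the 10. It ran from 179.9 to 562 (median 305) in untreated tumors, from 256 to 520.3 (median 380.3) with ADU-S100, from 339.6 to 715 (median 530.2) with anti-LTβR and from 369.5 to 938 (median 588) with the combination. The groups overlapped, with 5 of 8 combination tumors above all untreated ones. The log2 fold change was 0.89 (SE 0.228, limma adjusted p = 0.00504). Cd8b1, the β chain, ran from 46.9 to 179 (median 86.5), 61.7 to 139 (median 122), 67.1 to 185 (median 143) and 94.3 to 236 (median 153) in the same order of groups. Its overlap was wider, with 3 combination tumors above all untreated ones, and the log2 fold change was 0.79 (SE 0.259, limma adjusted p = 0.0210). With only the tumors above 14000000 reads, the call of Cd8b1 was lost (0.80, limma adjusted p = 0.0584).

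Cd2 ran from 75.6 to 193 (median 99.3) in untreated tumors, 78.5 to 124 (median 98.8) with ADU-S100, 107 to 158 (median 141) with anti-LTβR and 141 to 255 (median 195) with the combination. Combination tumors were all above ADU-S100 tumors, and 4 of 8 were above all untreated ones. The log2 fold change over untreated tumors was 0.84 (SE 0.172, limma adjusted p = 0.000987).

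Of the kinases, Lck ran from 172 to 301 (median 209) in untreated tumors, 164 to 262 (median 220.1) with ADU-S100, 235 to 355 (median 298) with anti-LTβR and 220.3 to 419 (median 376) with the combination. Zap70 ran from 63.3 to 143 (median 92.8), 72.8 to 135 (median 97.3), 122 to 153 (median 140.1) and 117 to 221 (median 190.4) in that order. For each kinase 6 of 8 combination tumors exceeded every untreated tumor. The log2 fold changes were 0.64 for Lck (SE 0.153, limma adjusted p = 0.00309) and 0.87 for Zap70 (SE 0.180, limma adjusted p = 0.00110). Anti-LTβR tumors were narrowly spread for Zap70, with a coefficient of variation of 7.36%.

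Anti-LTβR given alone raised 4 of the 10 genes over untreated tumors, against 7.21% of 16691 genes called higher and 15.3% called in either direction. Cd3e rose by 0.79 on the log2 scale (SE 0.178, limma adjusted p = 0.0102), with 6 of 8 tumors above every untreated tumor. Cd8a rose by 0.74 (adjusted p = 0.0316), Zap70 by 0.55 (adjusted p = 0.0214) and Lck by 0.43 (adjusted p = 0.0257). The remaining estimates were 0.56 for Cd8b1, 0.45 for Cd4, 0.44 for Cd247, 0.42 for Cd3d, 0.41 for Cd3g and 0.33 for Cd2, with limma adjusted p from 0.0573 to 0.147. All 10 had an unadjusted p below 0.05 in limma, which 33.5% of all genes also had. Cd247 was called by DESeq2 (adjusted p = 0.0359) and in a joint fit of all 32 tumors (limma adjusted p = 0.0264), which also called Cd4 (limma adjusted p = 0.0473). The number called was sensitive to single tumors. It was 8 without untreated tumor 3 and 2 without untreated tumor 1 or untreated tumor 4, and over the 16 such fits the genes called among all tested ran from 1582 to 2927. With only the tumors above 14000000 reads, the calls of Cd8a (0.73, limma adjusted p = 0.0806) and Zap70 (0.59, limma adjusted p = 0.0535) were lost, though their estimates moved little. Cd247 was called in that fit (0.56, limma adjusted p = 0.0423).

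With ADU-S100 alone, 0 of the 10 genes were called, and limma called 0 of 16613 genes (0%) in this comparison. At an unadjusted p below 0.05, limma gave 2408 genes (14.5%) and 0 members. DESeq2 called 57 genes and edgeR 1, of which 0 were members. The largest estimate was 0.33 for Cd3e (95% interval -0.05 to 0.70, limma adjusted p = 0.375). For Cd4 it was -0.16 (95% interval -0.53 to 0.20) and for Cd2 -0.14 (95% interval -0.49 to 0.22). Over the 10 genes the upper bounds of these intervals ran from 0.20 (Cd4) to 0.80 (Cd8b1).

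**Figure D2:**
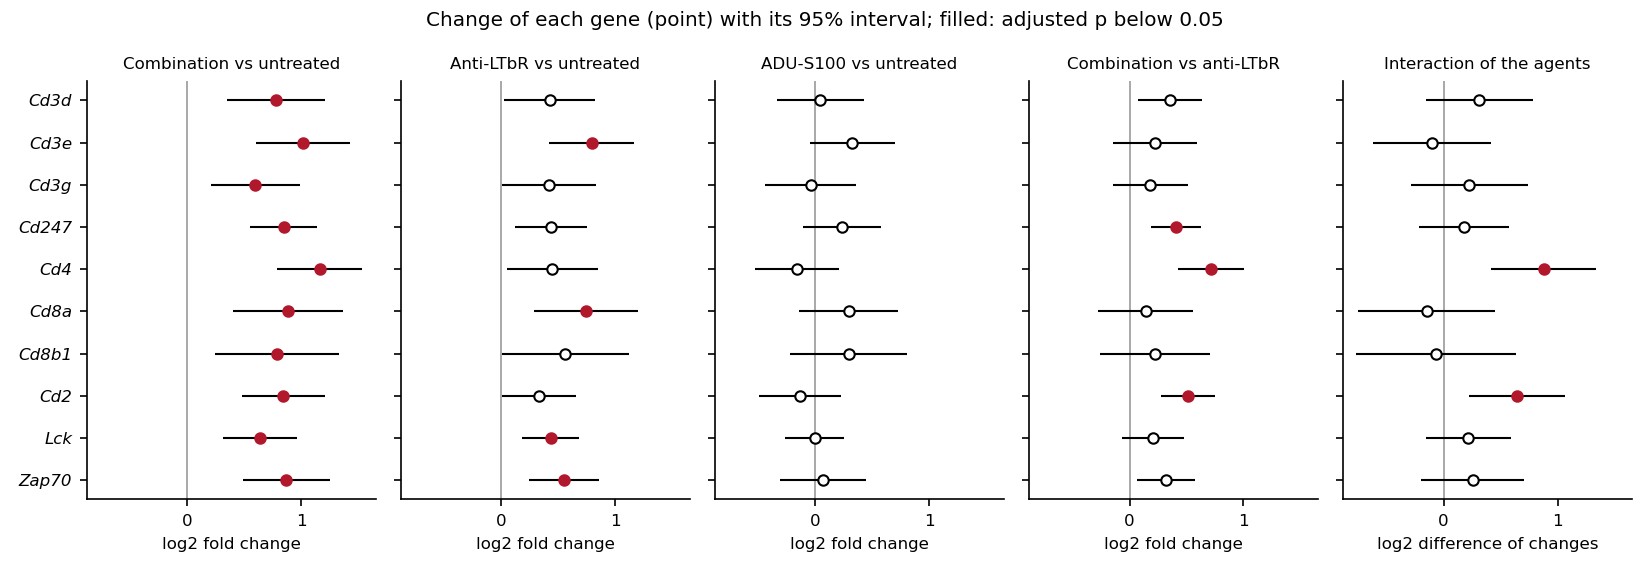
Log2 fold change (horizontal axis) of each gene with its 95% interval in 4 comparisons between groups and in the interaction of the agents. Filled red points have an adjusted p below 0.05, which is the case for 10 genes in combination against untreated tumors, 4 with anti-LTβR, 0 with ADU-S100, 3 in combination against anti-LTβR and 2 in the interaction.

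Adding ADU-S100 to the antibody was tested by setting combination against anti-LTβR tumors. Cd4, Cd2 and Cd247 were higher with both agents, where 11.3% of 16932 genes were called higher and 26.6% in either direction. Cd4 rose by 0.72 (SE 0.136, limma adjusted p = 0.00189) and Cd2 by 0.51 (SE 0.114, limma adjusted p = 0.00446), each with 7 of 8 combination tumors above all anti-LTβR tumors. Cd247 rose by 0.41 (SE 0.104, limma adjusted p = 0.00930), with 6 of 8 above. Pou2f1 was lower in the same comparison, by -0.28 (limma adjusted p = 0.0387). The CD8 chains and 2 of the CD3 chains gave small estimates with wide intervals. They were 0.14 for Cd8a (95% interval -0.28 to 0.56), 0.23 for Cd8b1 (-0.26 to 0.71), 0.22 for Cd3e (-0.15 to 0.59) and 0.18 for Cd3g (-0.14 to 0.51). Cd3d (0.36, limma adjusted p = 0.0608) and Zap70 (0.32, limma adjusted p = 0.0622) stood just outside the threshold in limma, and edgeR and DESeq2 called both. Of the members, 5 were called without combination tumor 4 or combination tumor 8, and 1, Cd4, with only the tumors above 14000000 reads. Cd2 (0.43, limma adjusted p = 0.0563) and Cd247 (0.30, limma adjusted p = 0.0848) lost their calls there.

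Adding the antibody to ADU-S100 was tested by setting combination against ADU-S100 tumors, and 9 of the 10 genes were higher with both agents (20.2% of 16811 genes were called higher and 46.2% in either direction). Cd4 rose 2.51-fold, by 1.32 on the log2 scale (SE 0.112, limma adjusted p = 3.48e-06), and was the only member past 2-fold, where 5.46% of all genes were higher by that much. Cd4, Cd2 and Cd3d did not overlap between these groups, as was so for 5% of all genes. Cd8b1 was not called by limma (0.50, adjusted p = 0.0539), while DESeq2 (adjusted p = 0.0191) and edgeR with TMM (adjusted p = 0.0319) called it. Cd8a, at 0.60 (limma adjusted p = 0.0131), lost its call with only the tumors above 14000000 reads (0.43, limma adjusted p = 0.118). Between the single agents, Cd3d, Cd4, Cd2, Lck and Zap70 were higher with anti-LTβR than with ADU-S100, where 3.38% of 16649 genes were called higher and 6.42% in either direction. The estimates were 0.61 for Cd4 (limma adjusted p = 0.0158), 0.49 for Zap70 (0.0273), 0.47 for Cd2 (0.0224), 0.44 for Lck (0.0136) and 0.38 for Cd3d (0.0340). Without ADU-S100 tumor 2, ADU-S100 tumor 5 or anti-LTβR tumor 4, 3 members were called. In a joint fit of all 32 tumors, Cd4 alone was called, and DESeq2 called 8 members, Cd3e, Cd3g and Cd8a in addition. These comparisons share groups with each other and are not independent.

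Whether the agents together did more than the sum of their single effects was tested with all 32 tumors. On the log2 scale the interaction was positive and called for 2 members, Cd4 and Cd2, where 7.33% of 17649 genes were called in that direction and 18.4% in either. Mean log2 levels of Cd4 were 6.65 without treatment, 6.49 with ADU-S100, 7.10 with the antibody and 7.81 with both, while the single changes added to the untreated level give 6.94. The interaction of Cd4 was 0.88 (SE 0.225, limma adjusted p = 0.00722). For Cd2 the means were 6.77, 6.63, 7.10 and 7.61 in the same order, the added level 6.96 and the interaction 0.65 (SE 0.207, limma adjusted p = 0.0279). With only the tumors above 14000000 reads, the interaction was 0.78 for Cd4 (limma adjusted p = 0.0644) and 0.61 for Cd2 (limma adjusted p = 0.121). For the other 8 genes the estimates ran from -0.15 (Cd8a, 95% interval -0.75 to 0.45) to 0.31 (Cd3d, limma adjusted p = 0.355).

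Within a tumor, ratios between members are nearly free of the size factor (a pseudocount of 1 was added to each count), and 8 ratios were compared in 4 comparisons. Each test was an exact permutation test, two-sided, over all 12870 ways to divide 16 tumors. None of these 32 tests passed an adjusted p of 0.05. Cd4 over Cd8a had geometric means of 0.319 without treatment, 0.233 with ADU-S100, 0.259 with the antibody and 0.386 with both. The difference between combination and anti-LTβR tumors was 0.57 on the log2 scale (exact p = 0.0558, adjusted p = 0.162), and against untreated tumors it was 0.28 (exact p = 0.328, adjusted p = 0.437). Lck over Cd3e had a geometric mean of 2.16 in untreated tumors and 1.71, 1.68 and 1.66 in ADU-S100, anti-LTβR and combination tumors. With the combination it differed from untreated tumors by -0.37 (exact p = 0.00591, adjusted p = 0.0733). Cd8a over Cd8b1 lay between 3.57 and 4.06 in the group means. Cd3e relative to Ptprc, which encodes the leukocyte antigen CD45, was higher by 0.43 in combination than in untreated tumors (exact p = 0.0202, adjusted p = 0.0987).

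**Figure D3:**
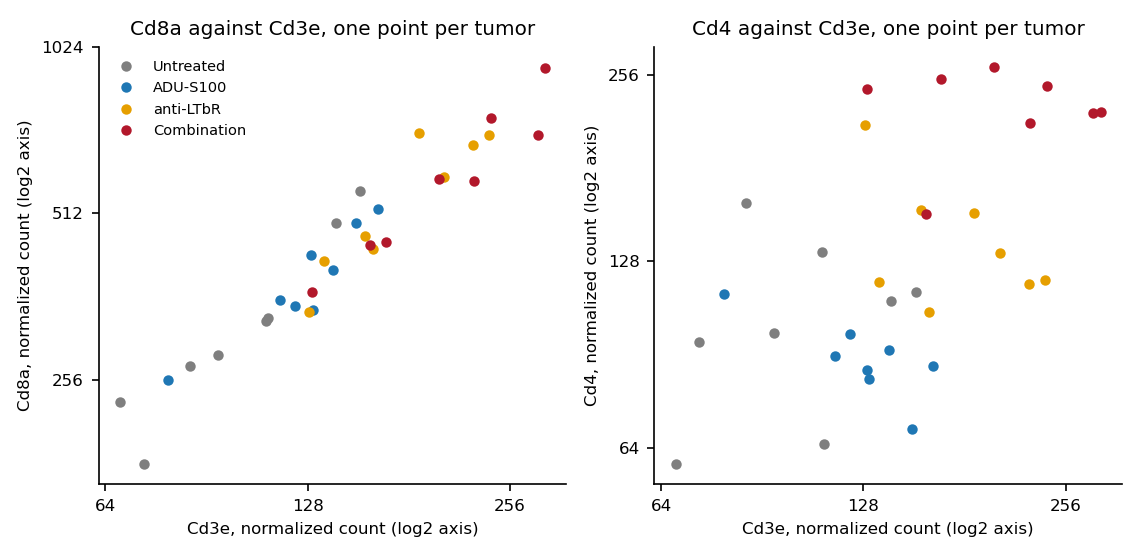
Normalized counts of Cd8a (left) and Cd4 (right) against Cd3e in each of the 32 tumors, both axes on a log2 scale, with a colour for each group. Cd8a follows Cd3e along 1 line (r = 0.944 after the group means are subtracted), whereas Cd4 does not (r = -0.0491).

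How far the members varied together between tumors of the same treatment was examined next. After the group means were subtracted, Cd8a correlated with Cd3e over the 32 tumors with Pearson's r = 0.944 and Spearman's rho = 0.944 (permutation adjusted p = 1.8e-05 for r, over 9 members). Without the 2 tumors farthest from the median of Cd3e, r was 0.937. Cd8b1 gave r = 0.925, rho = 0.939 and r = 0.929 without these tumors. Cd3g (r = 0.815), Zap70 (0.767), Lck (0.750), Cd3d (0.746) and Cd247 (0.712) followed, and their r without these tumors lay between 0.698 and 0.789.

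Cd2 and Cd4 stood apart from the rest. Cd2 gave r = 0.486 and rho = 0.453 (permutation adjusted p = 0.0113 for r, r = 0.592 without the 2 tumors). Cd4 gave r = -0.0491 (permutation p = 0.814) and rho = -0.0843 (permutation p = 0.670), and r = 0.0556 without the 2 tumors. Within groups of 8 tumors, r of Cd4 with Cd3e was 0.320 without treatment, -0.777 with ADU-S100, -0.470 with the antibody and 0.116 with both. For Cd8a the same values were 0.955, 0.932, 0.927 and 0.959. Lck and Zap70 were less tied to Cd3e in anti-LTβR tumors (r = 0.229 and 0.110) than in the other groups, where r was between 0.671 and 0.955, a difference that was not tested. For Cd2 the values were 0.877 without treatment, -0.395 with ADU-S100, 0.0994 with the antibody and 0.722 with both, so its pooled r covers groups of opposite sign. Over the 45 pairs of members the median r was 0.688, with the highest value for Cd3e and Cd8a (0.944) and the lowest for Cd3g and Cd4 (-0.0639). Cd4 correlated with Cd2 at 0.446, with Lck at 0.415 and with Zap70 at 0.350. Values of 1 tumor share a library and its size factor.

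**Figure D4:**
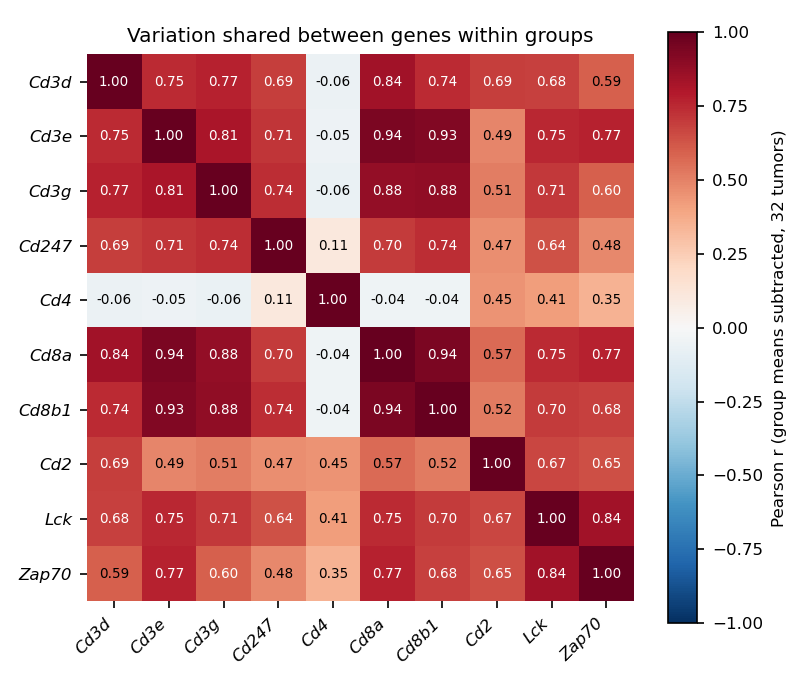
Pearson's r between each pair of the 10 genes over 32 tumors, on log2(normalized count + 1) with the group means subtracted (colour scale from -1 to 1). The CD3 and CD8 genes form a block of high values, and the row of Cd4 holds the lowest ones, down to -0.0639.

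The genes outside the list whose values were most like the mean of Cd3d, Cd3e and Cd3g across the 32 tumors, with group means subtracted, were ranked among 17639 genes. The median r over all of these was -0.0219 and the 99th percentile 0.678. Highest were Pdcd1, which encodes the inhibitory receptor PD-1 (r = 0.906), Nkg7, a gene of cytotoxic granules (0.904), Cxcr6, a chemokine receptor (0.876), and Trac, the T cell receptor α constant gene (0.865). They were followed by Klre1, an NK receptor (0.851), Lag3, an inhibitory receptor (0.831), Ntn4 (0.816), As3mt (0.814), Rarb (0.813) and Ccl8 (0.810). Being alike between tumors of a group did not always go with a treatment change. Pdcd1, Nkg7, Cxcr6, Trac, Lag3 and Ccl8 were higher in combination than in untreated tumors, with log2 fold changes from 0.68 to 1.07. Klre1 (0.19), Ntn4 (-0.12), As3mt (0.45) and Rarb (0.43) were not called, with limma adjusted p from 0.0539 to 0.509. On the same measure Cd8a ranked 1 (r = 0.964), Cd8b1 4 (r = 0.927), Cd247 26, Lck 27, Zap70 97, Cd2 638 and Cd4 9616 (r = -0.0611).

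Other genes of the receptor pathway moved as follows between combination and untreated tumors, where 19.6% of all genes were called higher and 23.6% lower. Of 7 T cell receptor constant genes, 5 were higher and 0 lower, with a median log2 fold change of 0.93. Trac rose from 148 ± 45.9 to 279 ± 60.0 normalized counts (SD, n = 8 each). Trdc, the constant gene of the δ receptor chain, rose from 26.9 to 67.7 (log2 fold change 1.33), and Trbc2 from 104 to 175. The constant genes of the β and γ chains have near-identical copies, so their counts are uncertain. Among 30 genes of proximal signaling, 29 were tested, 23 were higher and 1 lower, with a median of 0.59. Cd28, a costimulatory receptor, rose from 49.9 ± 12.8 to 129 ± 30.7 (log2 fold change 1.36, limma adjusted p = 2.87e-05). Malt1, a protease of antigen receptor signaling, rose from 433 to 676, and Ptprc from 1673 to 2511. The gene that fell was Csk, the kinase that inhibits Lck, with a log2 fold change of -0.17.

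Of 16 transcription factors of the T lineage 3 were higher and 3 lower, with a median of 0.10, which is near the shares of 19.6% higher and 23.6% lower over all genes. Ikzf1, a lymphoid regulator, rose from 435 to 624, as did Satb1 and Ikzf3 (log2 fold changes of 1.09 and 1.04). Runx1 fell from 3147 to 2345 and Zbtb7b, the CD4 lineage factor ThPOK, from 1835 to 1506, and Klf2 was also lower. Counts of Runx1 and Zbtb7b were far above the untreated means of Cd4 (104) and Cd3e (105). Which cells made this RNA was not tested, so these falls cannot be read as falls within T cells. Of 10 genes of naive and memory T cell homing, 6 were higher and 1 lower, with a median of 0.65. Il7r, the IL-7 receptor, rose from 189 to 399, and the chemokine receptor Cxcr3 from 36.6 to 88.3. Cd44, an adhesion receptor also made by tumor cells, fell from 18164 to 12922.

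**Figure D5:**
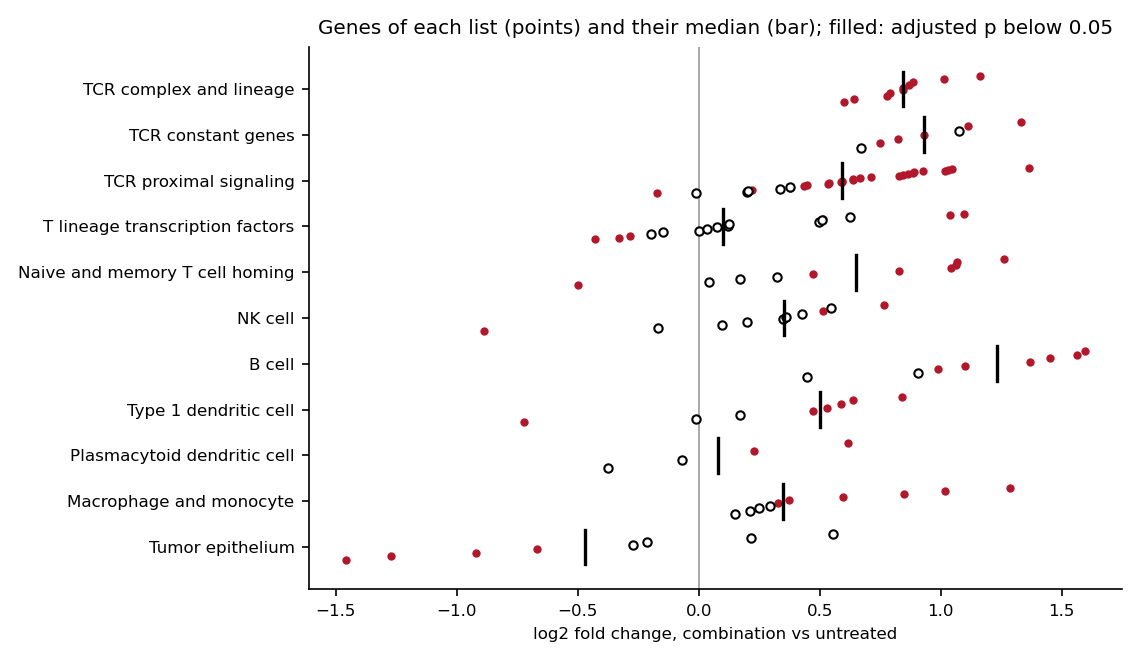
Log2 fold change of combination against untreated tumors (horizontal axis) for each tested gene of the 10 members and 10 other lists, with a bar at the median of each list. Filled points have an adjusted p below 0.05. The members lie between 0.60 and 1.16, B cell genes have the highest median (1.23) and tumor epithelium genes the lowest (-0.47).

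Markers of other cell types were compared between the same groups, and their part in the member values was not tested. Cd2, Cd247, Zap70 and Lck are also expressed by NK cells, and of 10 NK cell markers 2 were higher (Klrk1 and Klrd1) and 1 lower (Klra4), with a median of 0.35. These counts are near or below the shares of 19.6% higher and 23.6% lower over all genes. Klra4 has near-identical relatives, so its fall from 1251 to 674 is uncertain. The summed NK level was 1668 to 2632 in untreated and 1596 to 2057 in combination tumors, and Klra4 made up most of it in untreated tumors. Without Klra4 the sum was 614 to 1227 (median 765) and 873 to 1320 (median 1188), and 8 of the 9 other markers had a positive estimate. Of 10 B cell markers 8 were tested, of which 6 were higher and 0 lower, with a median of 1.23. Their sum was 162 to 454 in untreated and 392 to 1195 in combination tumors, with mean levels of Cd22 at 86.3 and 231, Cd79a at 42.1 and 127 and Blk at 11.8 and 35.2. Mouse type 1 dendritic cells can carry CD8α, whereas CD4 is found on some other dendritic cells, among them plasmacytoid and type 2 cells, and no type 2 list was examined. Of 8 markers of conventional type 1 dendritic cells 5 were higher and 1, Cadm1, was lower, with a median of 0.50, and the sum was 2759 to 3027 in untreated and 2795 to 3833 in combination tumors. Of 6 plasmacytoid dendritic cell markers 4 were tested and 2 were higher, Tcf4 and Pacsin1, with a median of 0.08. Their sum was 1278 to 1756 in untreated and 1571 to 2002 in combination tumors, nearly all of it from Tcf4, a factor that many cell types express. Without Tcf4 the sum was 48.3 to 100.5 (median 71.5) and 58.3 to 114 (median 66.0), and the estimates were -0.07 for Siglech and -0.37 for Ccr9.

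Macrophage and monocyte markers were higher for 6 of 10 genes and lower for 0 (median 0.35), where 19.6% of all genes were called higher. Their sum was 29301 to 57859 in untreated and 46919 to 94092 in combination tumors. Lyz2, a lysozyme of myeloid cells, rose from 15310 to 37761, Cd68 from 1666 to 3047 and Csf1r, the receptor for CSF-1, from 3043 to 4618. Of 8 genes of the tumor epithelium 0 were higher and 4 lower (median -0.47), where 23.6% of all genes were called lower. Krt18 fell from 7356 to 2664 (log2 fold change -1.46) and Krt7 from 179 to 71.4 (-1.27). Their sum was 16205 to 29337 in untreated and 6931 to 14967 in combination tumors, without overlap between these groups. With anti-LTβR alone, 7.21% of all genes were called higher, and 1352 of 16691 genes were called lower. In that comparison 1 of 6 tested T cell receptor constant genes (Trac) and 8 of 28 tested signaling genes were higher. Of the transcription factors 2 of 16 were higher (Ikzf1 and Ikzf3) and 2 lower (Zbtb7b and Runx1), and of the homing genes 2 of 10 were higher (Il7r and Cxcr6). Of the markers of type 1 dendritic cells 4 of 8 were higher, Irf8 (0.50), Wdfy4 (0.38), Clec9a (0.79) and Tlr3 (0.30), with a sum of 2937 to 3692. Higher were also Tcf4 and Pacsin1, 2 of 10 NK, 2 of 8 tested B cell and 4 of 10 macrophage genes, and 4 of 8 epithelial genes were lower. With ADU-S100 alone 0 genes of these lists were called. In every list each gene had at least 1 normalized count in at least 1 of the 32 tumors.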

How the data were processed

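RNA of 32 individual tumors, 8 in each of 4 groups, was analysed in groups taken from the sample labels. The values the authors deposited are a signal, in which the reads of each gene are scaled by a size factor of the library (column sums 15443912 to 16759706). The methods name Cutadapt, HISAT2 and StringTie, and the submitters' processing notes also name Cutadapt 1.9, STAR, Partek and mm39. The table carries Partek in its name, but which aligner made it could not be settled, since the methods name HISAT2 for the mouse tumors and the reporting summary names STAR within Partek. The authors also deposited such a signal for 52 libraries and 27894 genes. Of its low values, 100% were whole multiples of 1 read (tolerance 0.05 of a read), from which reads were recovered. In 9 libraries that step was too near 1 to separate it from rounding. Both tables hold 26057 genes. Another 20 libraries belong to another experiment. Of these, 15 have labels that contradict each other and stayed unassigned, and 5 are labelled combination throughout. None enters a comparison. The authors' gene set enrichment results, with the p-values and scores they computed, were not used, and per-sample columns left unused number 0.

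Groups were compared with limma 3.58.1 (R 4.3.3, trend) on log2(normalized count + 1), a pseudocount of 1, each comparison in its own 16 libraries and the interaction in all 32. Genes passed filterByExpr of edgeR 4.0.16 with a minimum count of 10, and Benjamini-Hochberg adjustment was made over all genes. Alternatives were edgeR and DESeq2 1.42.0 on recovered reads (TMM, library totals, size factors), a pseudocount of 0.1, no filter, 1 fit of 32 libraries, the replicate number as a block, libraries above 14000000 reads, a 2-fold rule, and each library left out. A fold change on this scale understates changes of low genes. Ratios were compared by exact permutation (scipy 1.17.1) over 12870 splits, where the smallest possible p is 0.000155. Correlations used 100000 permutations within groups, where the smallest possible p is 1e-05. Scripts were tested on simulated data.

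The members and lists were chosen with earlier results of these data known. Every member is named, and from each other list the 3 genes with the smallest adjusted p between combination and untreated tumors and Ptprc. Satb1, Ikzf3, Klf2, Csk, Siglech, Clec9a and Tlr3 were named after their values were seen. The 10 genes most like the mean of Cd3d, Cd3e and Cd3g are named by correlation. Positions and exon lengths are of GRCm38 (GENCODE), since the deposited coordinates are of another build. Promoters were taken from RefSeq (GRCm38.p6).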

Additional observations from a re-analysis of the deposited data

Results flagged for a closer look

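In the anti-LTβR group, tumor 1 had 212 normalized counts of Cd4 and stood far from the other 7 tumors. Without it the log2 fold change of Cd4 over untreated tumors was 0.36 (limma adjusted p = 0.186). In the combination group, tumor 4 had 153 normalized counts of Cd4, far below the other 7. Without it the log2 fold change over untreated tumors was 1.24 (limma adjusted p = 8.41e-05). The 10 genes and 8 ratios gave 72 groups of 8 values to search for such a tumor, and 2 were found. The ratios reuse the same genes and tumors, so these groups are not independent. How many such tumors chance would give was not tested.

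The change of Cd4 with one agent depended on the other agent, with an interaction of 0.88 on the log2 scale (limma adjusted p = 0.00722). The interaction of Cd2 was 0.65 (limma adjusted p = 0.0279). With only the tumors above 14000000 reads neither was called (Cd4 0.78, limma adjusted p = 0.0644, Cd2 0.61, limma adjusted p = 0.121).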

How the results depend on the processing

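Over all alternatives the members kept their direction in combination against untreated tumors, and 10 were called in each fit that left out 1 tumor. Leaving out single tumors gave 2 to 8 members with anti-LTβR over untreated, 0 to 0 with ADU-S100 over untreated, 3 to 5 in combination against anti-LTβR, 9 to 10 in combination against ADU-S100 and 3 to 6 between the single agents. Genes called in the same fits were 6558 to 7346 in combination against untreated, then 1582 to 2927, 0 to 6, 3460 to 5025, 7148 to 7805 and 425 to 1498 in that order. Leaving out tumors was not run for the interaction. In ADU-S100 against untreated tumors the estimates near 0 turned sign. For Cd3d it was -0.040 with DESeq2, -0.036 with edgeR on TMM and -0.039 on totals. Single tumors left out gave -0.068 to 0.16 for Cd3d, -0.15 to 0.079 for Cd3g, -0.055 to 0.060 for Lck and -0.016 to 0.15 for Zap70. With only libraries above 14000000 reads it was 0.11 for Cd3g and 0.072 for Lck, and the interaction was -0.088 for Cd247 and -0.038 for Lck. The interaction of Cd8b1 was 0.043 with DESeq2, 0.034 with TMM and 0.030 with totals. DESeq2 split the genes called in the interaction into 1692 higher and 1596 lower, against 1293 and 1947 in limma. No scaling moved the median of all genes by over 0.1.

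With the 2-fold rule, members called were 2 in combination against untreated, 0 with anti-LTβR over untreated, 0 in combination against anti-LTβR, 1 in combination against ADU-S100 and 0 between the single agents, and genes called were 1034, 173, 357, 1038 and 100. With only libraries above 14000000 reads, fewer samples per fit, genes called were 1537 with anti-LTβR, 7 with ADU-S100, 1450 in combination against anti-LTβR (1 member) and 1568 in the interaction (0 members), and 2 ratios passed in ADU-S100 against untreated tumors, Cd2/Cd3e (-0.65) and Lck/Cd3e (-0.40). DESeq2 called 57 genes with ADU-S100, 5 members in combination against anti-LTβR, and 8 members and 1636 genes between the single agents. Either edgeR scaling called 1 gene with ADU-S100 and 5 members in combination against anti-LTβR. A joint fit of 32 libraries called 1 gene with ADU-S100 and 1 member and 475 genes between the single agents, and no filter gave 710 genes there. For these shifts the cause was not tested.

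The labels do not say which mouse a replicate number belongs to, and the numbers were not taken to pair the tumors. Over the 6 comparisons the mean correlation of same-numbered tumors ran from -0.085 to 0.186 (ADU-S100 against untreated, 6 of 8 pairs over 0.1; next 0.173 in combination against anti-LTβR, 5 of 8), and in none were all 8 pairs over 0.1. With the replicate number as a block, 10 members and 6938 genes were called in combination against untreated, 2 members and 1660 genes with anti-LTβR (without Cd8a, adjusted p = 0.0683, and Zap70, 0.0575) and 2 genes with ADU-S100. Between the single agents it called 445 genes and 5 members, Cd4 and Lck as before and Cd3e (0.0366), Cd3g (0.0264) and Cd8a (0.0200) in place of Cd3d (0.0708), Cd2 (0.0721) and Zap70 (0.0599). At this depth Cd3d, with 43 reads in the lowest tumor, has the largest counting error of the members.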

Other observations

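The 20 libraries of the other experiment, on the scale of the larger table, covered wider ranges. In the 15 libraries with contradicting labels Cd3e ran from 80.2 to 434 (median 167) and Cd4 from 47.2 to 432 (median 188). In the 5 labelled combination throughout Cd3e ran from 109 to 298 (median 205) and Cd4 from 191 to 2229 (median 430.4). Cd3e had the lowest maximum of the 10 genes in these 5 libraries, where Cd2 reached 3298, Cd3d 2773, Zap70 2538 and Cd8b1 1186. Medians in the 5 were far lower, at 393 for Cd2, 357 for Cd3d, 149 for Zap70 and 290 for Cd8b1. The shallowest of the 20 libraries, with 8716257 recovered reads against a median of 17645276, was among these 5. On the same scale, combination tumors of the 32 had 134 to 298 for Cd3e and 157 to 276 for Cd4, and untreated tumors 67.4 to 155 and 60.4 to 165.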
